A study of Mus musculus with 28 samples.

Results

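The genes described here act on lipoproteins outside and inside the cell. They are 4 uptake receptors (Scarb1, Lrp1, Vldlr and Cd36), 2 lipases (Lpl and Lipc), the assembly protein gene Mttp, and 3 genes of high-density lipoprotein (HDL) metabolism (Lcat, Pltp and Abca1). They were chosen by name for these roles. These 10 genes were found among 23712 gene rows by summing the deposited expected counts per gene symbol, and all 10 passed the filter on low counts. The study asked how mouse embryonic fibroblasts change when retroviruses give them Hnf4a and 1 of 3 Foxa transcription factors, a pairing used to make induced hepatocyte-like (iHep) cells. RNA was sequenced from 28 libraries of C57BL/6 cells in 9 groups. The group 48h_Foxa3del2 (2 libraries) received Hnf4a and a Foxa3 mutant named del2, whose missing residues are not stated. Established iHep lines made with Hnf4a and Foxa1, Foxa2 or Foxa3 gave 6, 4 and 6 libraries (iHep_Foxa1, iHep_Foxa2, iHep_Foxa3). Cells taken 48 h after the same full-length genes were introduced gave 2 libraries each (48h_Foxa1, 48h_Foxa2, 48h_Foxa3). Adult hepatocytes (Hep, 2 libraries) were freed from livers of mice aged 10 weeks with collagenase. Fibroblasts without introduced genes (MEF, 2 libraries) came from embryos at 13.5 days post coitum. Cells infected with virus that lacked these genes were not analysed here, so infection and the factors cannot be told apart. Labels of the del2 libraries differ, since their titles give 48 h and their stage label says iHep.

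Lipoproteins carry triglyceride and cholesterol through blood. The liver builds very low-density particles by loading lipid onto apolipoprotein B with the microsomal transfer protein, lipases at vessel walls release fatty acids from the circulating particles, and receptors on hepatocytes clear the remnants. HDL forms when ABCA1 passes cholesterol and phospholipid to apolipoprotein A-I, is reshaped by LCAT and PLTP in plasma, and returns cholesterol to liver through SCARB1. Lipoprotein lipase is mainly a product of muscle and fat, and adult hepatocytes make little of it, whereas hepatic lipase and LCAT come chiefly from liver.

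Libraries held 14592820 to 51743266 assigned reads. Levels between libraries are given as CPM, the share of a library's counts scaled to a common total, with the library size scaled by TMM. Markers of hepatocytes, summed over 8 genes, reached 157 to 5110 CPM in iHep libraries, 9.41 to 12 CPM at 48 h with full-length factors, 200000 to 220000 CPM in Hep and 13.3 to 17.2 CPM in MEF. Most of the iHep sum came from Trf, Serpina1b and Alb, and the list did not rise as a whole. Apoa2 held 0.0784 to 1.96 CPM in iHep and 0.814 and 0.761 CPM in MEF. Cps1 held 0 to 3.44 CPM in iHep and 0.575 and 0.761 CPM in MEF, and Cyp2e1 0.18 to 2.61 CPM against 0.622 and 1.43 CPM. Fibroblast markers, also 8 genes, summed to 60.2 to 431 CPM in iHep, 23000 to 25400 CPM at 48 h with full-length factors, 53.6 to 86.1 CPM in Hep and 37300 to 38400 CPM in MEF. Of these, Twist1 still held 24.1 to 55.6 CPM in iHep, against 70.2 and 84.7 CPM in MEF and 0.122 and 0.498 CPM in Hep. Hnf4a averaged 367, 189 and 865 CPM in iHep_Foxa1, iHep_Foxa2 and iHep_Foxa3, 67.2 to 81.3 CPM at 48 h with full-length factors, 1010 CPM in Hep and 0.0952 CPM in MEF. In 48h_Foxa3del2 it averaged 732 CPM. A split that crosses the groups was seen in the level of the small nuclear RNA 7SK (Rn7sk). It lay between 17.2 and 72.5 CPM in 14 libraries (all 48 h libraries with full-length factors, replicates 4 to 6 of iHep_Foxa1 and replicates 2 to 6 of iHep_Foxa3) and between 0 and 5.98 CPM in the other 14. Only iHep_Foxa1 and iHep_Foxa3 hold libraries of both sets. A term for the set, used below, is therefore estimated within those groups and carried over to the others, where it cannot be checked. These are bulk samples, so fewer cells of a type and less RNA per cell cannot be told apart. The labels do not say that replicates were separate cultures, lines or animals, so p-values measure the spread between these libraries, which may be technical.

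More of the 10 genes were called between iHep cells and adult hepatocytes than between 48 h cells and fibroblasts, as was true of all genes tested. A gene was called when its Benjamini-Hochberg adjusted p from edgeR's quasi-likelihood test was under 0.05 among the 16499 genes tested, and log2 fold changes are given ± SE. In Hep against MEF, 8 of the 10 were called, where 56.9% of all genes tested were called, with 6 higher (24.3% of all genes) and 2 lower (32.6%). Each 48 h group had 2 of 10 called against MEF, Lcat and Scarb1, beside 5.25%, 5.48% and 5.21% of all genes for Foxa1, Foxa2 and Foxa3. Against MEF, 5, 5 and 4 members were called in iHep_Foxa1, iHep_Foxa2 and iHep_Foxa3, near the 39.9%, 30.7% and 46.6% of all genes. Against the 48 h cells of the same factor the counts were 6, 3 and 7, where 42.0%, 40.1% and 40.6% of all genes were called. Against Hep 9, 7 and 9 members were called in iHep_Foxa1, iHep_Foxa2 and iHep_Foxa3, beside 60.1%, 60.6% and 61.9% of all genes. Of these 8, 6 and 7 were lower, where 24.8%, 25.4% and 26.7% of all genes were lower, and 1, 1 and 2 were higher, where 35.3%, 35.2% and 35.3% were higher. The members' median log2 fold change in those comparisons was -2.42, -2.25 and -2.20, against 0.42, 0.42 and 0.39 for all genes. The iHep and Hep comparisons share the Hep libraries, and all comparisons with fibroblasts share the MEF libraries. The plot of levels by library shows the 10 genes over the 9 groups.

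**Figure D1:**
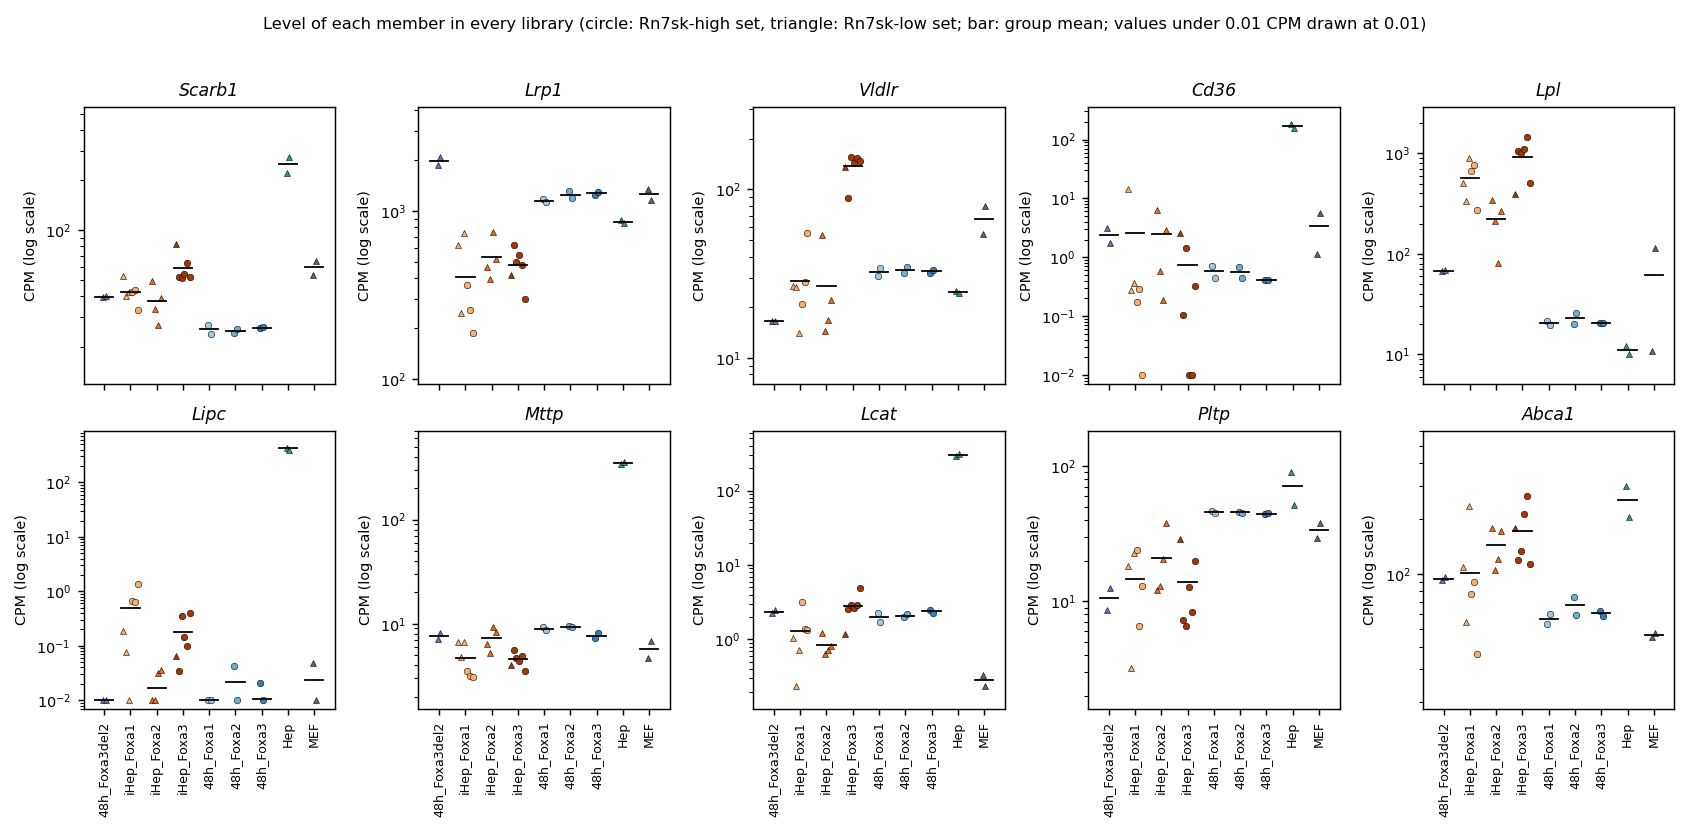
Level of each of the 10 genes in CPM on a log axis, 1 point per library, circles for libraries with Rn7sk at 10 CPM or more and triangles for the others, with a bar at each group mean; values under 0.01 CPM are drawn at 0.01. Lcat, Lipc, Mttp and Cd36 stand over 100 CPM in Hep alone, Lpl stands highest in the 3 iHep groups, and Vldlr stands highest in iHep_Foxa3.

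Lipoprotein lipase and hepatic lipase, the pair of triglyceride lipases, differed in opposite directions between iHep cells and Hep. Lpl encodes the enzyme that hydrolyses triglyceride in chylomicrons and very low-density particles. In iHep_Foxa1 its lowest, median and highest levels were 270, 585 and 896 CPM, and in iHep_Foxa3 they were 394.5, 1034 and 1462 CPM. The 4 iHep_Foxa2 libraries held 339.6, 210, 81.8 and 264 CPM. Every iHep library with Foxa1 or Foxa3 was therefore above every library of the 48 h, Hep and MEF groups. At 48 h the libraries were narrow, at 21.2 and 19.6 CPM with Foxa1, 20.1 and 25.5 CPM with Foxa2, and 20.5 and 20.6 CPM with Foxa3. Hep held 12 and 10.1 CPM. The 2 MEF libraries differed, with 10.8 CPM in replicate 1 and 113 CPM in replicate 2, and the lowest iHep_Foxa2 library lay between them.

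Lpl rose in all 3 iHep groups relative to the 48 h cells of the same factor, by 4.81 ± 0.82 on the log2 scale with Foxa1 (adjusted p = 7.69e-05), 3.30 ± 0.76 with Foxa2 (adjusted p = 0.00183) and 5.49 ± 0.85 with Foxa3 (adjusted p = 2.39e-05). No overlap of libraries occurred in any of these comparisons, and no library left out ended these calls. Relative to Hep, Lpl was higher by 5.70 ± 0.87 in iHep_Foxa1 (adjusted p = 6.72e-06), 4.34 ± 0.82 in iHep_Foxa2 (adjusted p = 9.09e-05) and 6.38 ± 0.90 in iHep_Foxa3 (adjusted p = 2.2e-06). As shares of the Hep mean, these levels were 5190%, 2030% and 8360%. Mean levels were 573 ± 246 CPM in iHep_Foxa1 (SD, n = 6), 224 ± 109 CPM in iHep_Foxa2 (SD, n = 4), 923 ± 401 CPM in iHep_Foxa3 (SD, n = 6) and 11.0 ± 1.35 CPM in Hep (SD, n = 2).

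Comparisons of Lpl with fibroblasts rested on which MEF library was used. Lpl was higher than in MEF by 3.21 ± 0.74 in iHep_Foxa1 (adjusted p = 0.00156), 1.85 ± 0.70 in iHep_Foxa2 (adjusted p = 0.0476) and 3.90 ± 0.77 in iHep_Foxa3 (adjusted p = 0.000309). Without MEF replicate 2 these Lpl values were 5.75, 4.33 and 6.45, and without MEF replicate 1 they were 2.33, 0.92 and 3.04. The iHep_Foxa2 call for Lpl ended without MEF replicate 1 (adjusted p = 0.405) and also without iHep_Foxa2 replicate 1, 2 or 4 (adjusted p = 0.102, 0.0615 and 0.076). With the Rn7sk-low libraries alone, which leave 1 of iHep_Foxa3, its Lpl difference from MEF was 2.63 (adjusted p = 0.0897). Lpl was called lower in Hep than in MEF (-2.49 ± 0.79, adjusted p = 0.01), but the groups overlapped. That Lpl difference was 0.12 (adjusted p = 0.937) without MEF replicate 2, -3.29 without MEF replicate 1, and lost its call without either Hep library (adjusted p = 0.0506 and 0.0728). MEF replicate 2 also held more macrophage marker RNA, with 330.2 CPM summed over the 9 macrophage markers in the files, against 28.49 CPM in MEF replicate 1. The part of those markers in the MEF levels was not tested. In iHep libraries the same 9 genes summed to 0.0784 to 4.82 CPM, with the Kupffer cell gene Clec4f at 0 in every one. Adipocyte markers, 7 genes, summed to 1.75 to 111 CPM in iHep, 16.0 to 20.4 CPM at 48 h with full-length factors, 13.5 to 14.4 CPM in Hep and 44.8 to 57.8 CPM in MEF. Most of each sum was Fabp4, and no other gene of that list exceeded 0.74 CPM in any library. Lep was at 0 in every library but MEF replicate 1, at 0.0479 CPM.

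Angptl4, Apoc2 and Pparg, 3 genes tied to Lpl, rose over 48 h cells with Foxa1 and Foxa3, and of these Apoc2 alone was called with Foxa2. Angptl4 encodes a secreted inhibitor of lipoprotein lipase, and Apoc2 its apolipoprotein cofactor. Pparg encodes a nuclear receptor of fat cells with Lpl and Angptl4 among its known targets, and its part in their levels was not tested. Angptl4 averaged 1020 ± 390 CPM in iHep_Foxa3 (SD, n = 6), 19.4 ± 0.345 CPM in 48h_Foxa3 (SD, n = 2) and 3.23 ± 2.21 CPM in MEF (SD, n = 2). It was higher in iHep_Foxa3 by 5.72 ± 1.43 than in 48h_Foxa3 (adjusted p = 0.00285) and by 8.31 ± 1.64 than in MEF (adjusted p = 0.000295). Apoc2 averaged 63.4 ± 65.9 CPM in iHep_Foxa1 (SD, n = 6) and 0.0225 CPM in 48h_Foxa1, a log2 difference of 11.13 ± 2.41 (adjusted p = 0.000875). Pparg averaged 96.0 ± 43.9 CPM in iHep_Foxa3 (SD, n = 6) and 11.7 ± 0.827 CPM in 48h_Foxa3 (SD, n = 2), a difference of 3.03 ± 0.61 (adjusted p = 0.000375). With Foxa1, Angptl4 rose by 4.95 ± 1.37 (adjusted p = 0.00614) and Pparg by 2.48 ± 0.58 (adjusted p = 0.00177), and Apoc2 rose by 9.70 ± 2.13 with Foxa3 (adjusted p = 0.000923). With Foxa2, where Lpl rose too, Angptl4 averaged 29.9 CPM in iHep_Foxa2 and 23.0 CPM in 48h_Foxa2 (0.38 ± 1.07, adjusted p = 0.809). Pparg averaged 17.7 CPM in iHep_Foxa2 and 10.6 CPM in 48h_Foxa2 (0.74 ± 0.55, adjusted p = 0.289), and Apoc2 6.76 and 0.0553 CPM (6.82 ± 2.06, adjusted p = 0.0121). All 3 were lower in iHep_Foxa2 than in iHep_Foxa3, Angptl4 by -5.10 ± 1.0 (adjusted p = 0.00145), Apoc2 by -3.83 ± 1.09 (adjusted p = 0.0124) and Pparg by -2.44 ± 0.43 (adjusted p = 0.000778). In Hep, Angptl4, Apoc2 and Pparg averaged 92.1, 142 and 8.91 CPM. A pair of further Lpl partners were looked up after their values were seen. Gpihbp1, the endothelial protein that anchors the lipase to capillaries, had 0 counts in every iHep and 48 h library and 2.45 and 6.97 CPM in Hep. Endothelial markers, 8 genes, summed to 147 to 151 CPM in Hep and 2.16 to 43.6 CPM in iHep. Of these Lyve1 went the other way in most iHep libraries, at 0.929 to 41.7 CPM against 2.2 and 2.86 CPM in Hep. The part of endothelial RNA in the Gpihbp1 level was not tested. Lmf1, which matures the lipase in the endoplasmic reticulum, averaged 10.2, 4.34 and 14.3 CPM in iHep_Foxa1, iHep_Foxa2 and iHep_Foxa3, against 11.5 to 11.8 CPM at 48 h. Angptl4 also followed the library sets, with 839, 1660 and 574 CPM in the Rn7sk-high replicates of iHep_Foxa1 and 90.7, 163 and 50.8 CPM in its other replicates.

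**Figure D2:**
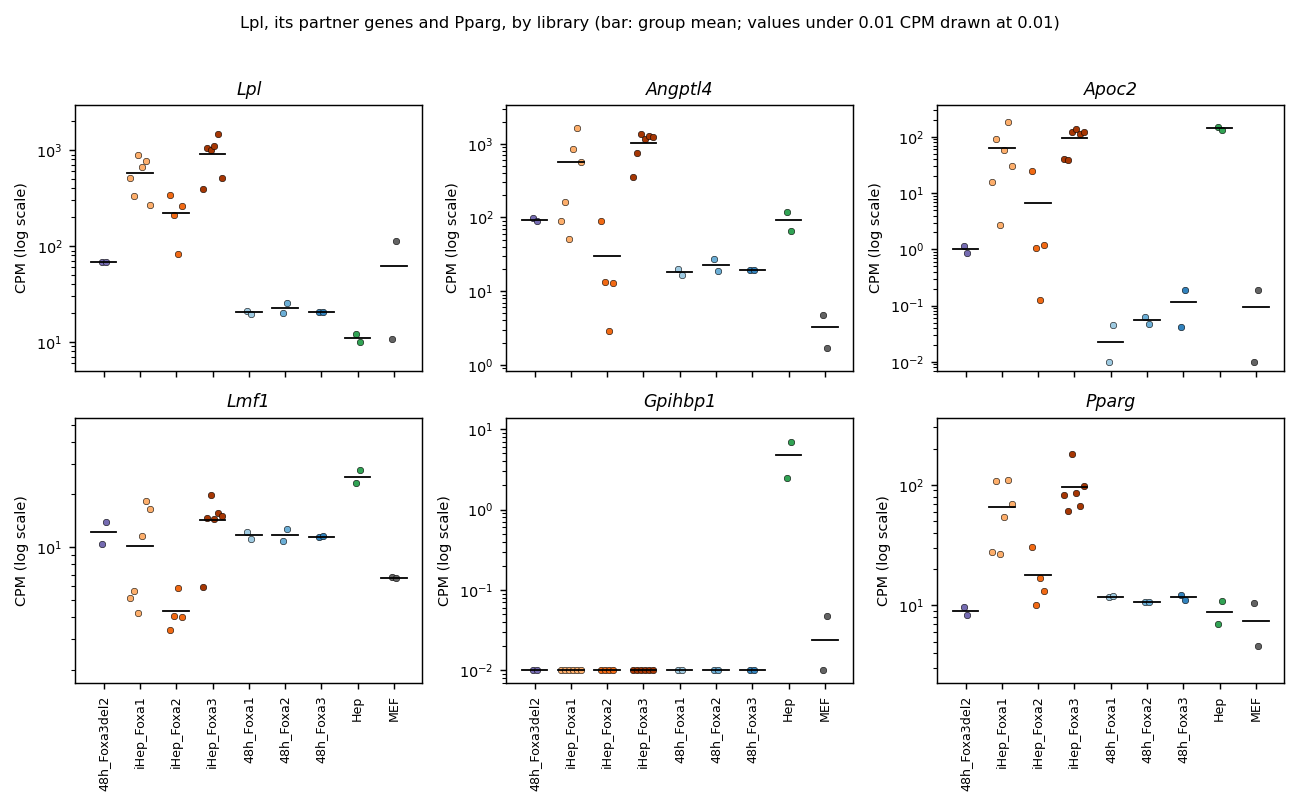
CPM on a log axis of Lpl, its inhibitor Angptl4, its cofactor Apoc2, its maturation factor Lmf1, its anchor Gpihbp1 and the nuclear receptor Pparg, 1 point per library with a bar at each group mean; values under 0.01 CPM are drawn at 0.01. Lpl, Angptl4, Apoc2 and Pparg are highest on average in iHep_Foxa3 among the iHep and 48 h groups, and Gpihbp1 is at 0 counts in all of them.

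Lipc encodes hepatic lipase, which acts on remnants and HDL in the liver sinusoid. The lowest, median and highest levels in iHep_Foxa1 were 0, 0.406 and 1.38 CPM, from 67 counts over 6 libraries. In iHep_Foxa3 they were 0.0344, 0.122 and 0.397 CPM, from 32 counts. The 4 iHep_Foxa2 libraries shared 2 counts, those of 48h_Foxa1, 48h_Foxa2 and 48h_Foxa3 held 0, 2 and 1 counts, Hep held 438 and 403 CPM, and MEF held 1 count. No library outside Hep exceeded 1.38 CPM. Lipc was lower than in Hep by -9.76 ± 0.73 in iHep_Foxa1 (adjusted p = 5.09e-10) and by -11.14 ± 0.77 in iHep_Foxa3 (adjusted p = 1.61e-10), with no overlap. With the Rn7sk set as a term these Lipc differences were -11.75 and -13.71. The mean of Lipc was 0.116% of the Hep mean in iHep_Foxa1 and 0.0434% in iHep_Foxa3. Lipc was also called higher in iHep_Foxa1 than in 48h_Foxa1 (adjusted p = 0.00579), at least 13.3-fold over a floor of 3 counts in that group, or 0.0366 CPM. That call ended without either 48h_Foxa1 library (adjusted p = 0.0506 and 0.0631). The Lipc call of iHep_Foxa1 against MEF (adjusted p = 0.0456) ended under 12 of 18 alternatives, among them the set term (adjusted p = 0.279). Floors cover counting error only. Of the FPKM of both lipases together, Lpl held 98.94% or more in every iHep library and 1.294% and 1.18% in the Hep libraries.

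Lipc, Mttp, Lcat and Cd36 shared a pattern in which Hep stood far above every other group. The 250 bases before a RefSeq start of each are printed because these genes were high in Hep and low in every other group, 5′ to 3′ on the gene's strand, from RefSeq on GRCm38.p6. Capitals mark the only match found in them, the HNF4 motif CAAAGGTCA, read on the opposite strand of the Lipc window at bases 76 to 68 before the start.
Lipc chr9:70934809-70935058, minus strand: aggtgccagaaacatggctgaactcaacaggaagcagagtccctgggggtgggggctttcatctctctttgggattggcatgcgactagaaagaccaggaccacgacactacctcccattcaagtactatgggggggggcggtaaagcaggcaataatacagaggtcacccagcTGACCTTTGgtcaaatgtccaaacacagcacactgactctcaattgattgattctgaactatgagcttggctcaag
Mttp chr3:138143419-138143668, minus strand: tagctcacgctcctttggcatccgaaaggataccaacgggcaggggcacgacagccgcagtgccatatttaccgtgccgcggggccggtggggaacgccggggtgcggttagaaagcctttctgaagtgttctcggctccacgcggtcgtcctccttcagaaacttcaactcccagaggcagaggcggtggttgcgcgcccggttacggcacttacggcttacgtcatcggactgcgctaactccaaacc
Lcat chr8:105943403-105943652, minus strand: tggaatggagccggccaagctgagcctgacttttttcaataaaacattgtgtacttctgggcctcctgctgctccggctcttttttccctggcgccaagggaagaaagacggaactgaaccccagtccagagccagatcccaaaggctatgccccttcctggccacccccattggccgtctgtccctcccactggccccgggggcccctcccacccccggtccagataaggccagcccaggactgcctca
Cd36 chr5:17835897-17836146, minus strand: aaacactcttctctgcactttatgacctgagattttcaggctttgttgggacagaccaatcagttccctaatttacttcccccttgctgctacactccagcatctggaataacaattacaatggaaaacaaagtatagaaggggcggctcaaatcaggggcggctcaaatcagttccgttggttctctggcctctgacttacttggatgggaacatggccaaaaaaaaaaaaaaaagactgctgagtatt
The table gave 10 such windows for 8 of the 10 genes, with none for Scarb1 or Lpl. A second Lipc window, chr9:70952222-70952471, is not printed and held 0 matches. They were searched on both strands for HNF4 (CAAAGTCCA or CAAAGGTCA), FOXA (TGTTTAC or TGTTTGC), HNF1, LXR, the E-box CACGTG and the TATA motif TATAAA. Among all promoter windows of this length, 0.384% and 0.426% held the HNF4 motifs, 3.17% and 4.3% the FOXA motifs, 0.371% HNF1, 0.0213% LXR, 6.02% the E-box and 12.4% TATA. Besides the Lipc match, Abca1 held the E-box at bases 147 to 142 before its start and TATA at 29 to 24. A match describes letters and not a bound site, and a window without one says nothing on the factor.

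Mttp encodes the large subunit of the microsomal triglyceride transfer protein, which loads lipid onto apolipoprotein B. Its lowest, median and highest levels were, in iHep_Foxa1, 3.06, 4.15 and 6.72 CPM, in iHep_Foxa3 they were 3.53, 4.58 and 5.65 CPM, and the 4 iHep_Foxa2 libraries held 6.43, 5.19, 9.29 and 8.32 CPM. The 48 h libraries held 9.21 and 8.61 CPM with Foxa1, 9.59 and 9.20 CPM with Foxa2, and 7.26 and 8.15 CPM with Foxa3. Hep held 342 and 353 CPM, and MEF held 4.65 and 6.76 CPM. No iHep library came near Hep, and the iHep levels overlapped those of MEF. Mttp was lower than in Hep by -6.22 ± 0.26 in iHep_Foxa1 (adjusted p = 1.47e-14), -5.57 ± 0.30 in iHep_Foxa2 (adjusted p = 1.34e-12) and -6.26 ± 0.26 in iHep_Foxa3 (adjusted p = 1.42e-14). Its iHep means were 1.34%, 2.1% and 1.31% of the Hep mean.

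Relative to 48 h cells, Mttp fell by 0.94 ± 0.26 on the log2 scale in iHep_Foxa1 (adjusted p = 0.00651) and by 0.76 ± 0.26 in iHep_Foxa3 (adjusted p = 0.0241). The difference was -0.36 in iHep_Foxa2 (adjusted p = 0.319). The Foxa1 call for Mttp ended without 48h_Foxa1 replicate 1 (adjusted p = 0.0661), and the Foxa3 call ended without 48h_Foxa3 replicate 1 or 2 (adjusted p = 0.0818 and 0.174). Mttp shares up to 197 exon bases with the opposite-strand gene Trmt10a and 132 with the antisense gene Gm43691. The strand setting of the counting is not given in the sources used here, so reads of these overlaps cannot be assigned with certainty. Trmt10a stood at 9.47, 11.3 and 9.79 CPM in the 3 iHep groups, 11.7 to 13.7 CPM at 48 h, 11.5 CPM in Hep and 15.8 CPM in MEF.

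Lcat encodes lecithin-cholesterol acyltransferase, which esterifies cholesterol on HDL in plasma. In iHep_Foxa1 the lowest, median and highest levels were 0.235, 1.20 and 3.17 CPM, in iHep_Foxa3 they were 1.19, 2.77 and 4.94 CPM, and the 4 iHep_Foxa2 libraries held 1.21, 0.644, 0.724 and 0.821 CPM. Those at 48 h lay between 1.71 and 2.51 CPM, Hep held 293 and 314 CPM, and MEF held 0.335 and 0.238 CPM. All iHep libraries with Foxa2 or Foxa3 and all 48 h libraries were thus above both MEF libraries and far below Hep. Lcat was lower than in Hep by -7.85 ± 0.49 in iHep_Foxa1 (adjusted p = 8.97e-12), -8.48 ± 0.60 in iHep_Foxa2 (adjusted p = 9.26e-11) and -6.73 ± 0.47 in iHep_Foxa3 (adjusted p = 5.32e-11). With the set term the Lcat differences were -8.77 in iHep_Foxa1 and -8.05 in iHep_Foxa3. The iHep means of Lcat were 0.434%, 0.28% and 0.943% of the Hep mean.

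The small rise of Lcat over fibroblasts appeared already at 48 h. It was higher than in MEF by 2.77 ± 0.75 in 48h_Foxa1 (adjusted p = 0.0367), 2.85 ± 0.75 in 48h_Foxa2 (adjusted p = 0.0314) and 3.04 ± 0.75 in 48h_Foxa3 (adjusted p = 0.0237). In iHep cells Lcat was higher than in MEF by 2.18 ± 0.68 with Foxa1 (adjusted p = 0.0146) and 3.30 ± 0.69 with Foxa3 (adjusted p = 0.000538), and by 1.55 ± 0.71 with Foxa2 (adjusted p = 0.103). Each of the 48 h calls for Lcat ended without any 1 of its 4 libraries, at log2 values from 2.56 to 3.35 and adjusted p up to 0.237. The 48 h and MEF libraries belong to different Rn7sk sets, and with the set as a term these Lcat differences were 1.28, 1.36 and 1.55 (adjusted p = 0.242, 0.206 and 0.154). The iHep_Foxa1 call for Lcat ended without either MEF library (adjusted p = 0.0812 and 0.14) and with the set term (1.26, adjusted p = 0.0632). The iHep_Foxa3 call remained with the set term at 1.98 (adjusted p = 0.0074).

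Pltp encodes phospholipid transfer protein, which moves phospholipid between particles and remodels HDL. The lowest, median and highest levels in iHep_Foxa1 were 3.22, 15.6 and 24.0 CPM, in iHep_Foxa3 they were 6.62, 10.5 and 29.0 CPM, and the 4 iHep_Foxa2 libraries held 12.2, 13.1, 20.7 and 38.3 CPM. Levels at 48 h lay between 44.0 and 46.9 CPM, Hep held 90.8 and 51.8 CPM, and MEF held 29.5 and 38.2 CPM. In CPM all iHep libraries were below all 48 h and Hep libraries. In FPKM iHep_Foxa3 replicate 1 at 16.84 and iHep_Foxa2 replicate 4 at 23.17 were above Hep replicate 2 at 15.78, so the separation from Hep depends on the scale. Pltp fell relative to 48 h cells by 1.66 ± 0.55 on the log2 scale in iHep_Foxa1 (adjusted p = 0.0198) and by 1.67 ± 0.55 in iHep_Foxa3 (adjusted p = 0.0191), and the difference was -1.11 in iHep_Foxa2 (adjusted p = 0.149). Relative to Hep it was lower by -2.29 ± 0.55, -1.76 ± 0.61 and -2.35 ± 0.54 in iHep_Foxa1, iHep_Foxa2 and iHep_Foxa3 (adjusted p = 0.00103, 0.0159 and 0.000746). Pltp differences from MEF were not called (-1.21, -0.68 and -1.27, with adjusted p = 0.0903 for Foxa1 and 0.0662 for Foxa3). The Pltp calls against 48 h ended without either 48 h library, at adjusted p = 0.101 and 0.0903 for Foxa1 and 0.0904 and 0.0958 for Foxa3. The iHep_Foxa2 call against Hep ended without Hep replicate 1 (-1.30, adjusted p = 0.169) and by limma on log2(FPKM + 1) (-0.82, adjusted p = 0.214). In the Rn7sk-low libraries alone Pltp in iHep_Foxa3 against Hep was -1.40 (adjusted p = 0.268). Pltp shares up to 311 exon bases with the opposite-strand gene Ctsa, which averaged 119, 85.8 and 120 CPM in the 3 iHep groups, 282 to 292 CPM at 48 h, 135 CPM in Hep and 258 CPM in MEF, so part of its reads could be split.

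Abca1 encodes the transporter that starts HDL formation by lipid efflux to apolipoprotein A-I. Its lowest, median and highest levels were, in iHep_Foxa1, 36.6, 83.6 and 235 CPM, in iHep_Foxa3 they were 114, 156 and 266 CPM, and the 4 iHep_Foxa2 libraries held 178, 105, 121 and 171 CPM. Libraries at 48 h lay between 52.8 and 75.1 CPM, Hep held 300.2 and 205.2 CPM, and MEF held 45.0 and 47.4 CPM. Libraries of iHep_Foxa2 and iHep_Foxa3 were all above the 48 h and MEF libraries, whereas iHep_Foxa1 overlapped both. Abca1 rose in iHep_Foxa3 relative to 48h_Foxa3 (1.49 ± 0.49, adjusted p = 0.0185), while the differences were 0.83 with Foxa1 (adjusted p = 0.163) and 1.10 with Foxa2 (adjusted p = 0.0812). Relative to MEF, Abca1 was higher by 1.64 ± 0.51 in iHep_Foxa2 (adjusted p = 0.0184) and 1.88 ± 0.50 in iHep_Foxa3 (adjusted p = 0.00416), and the iHep_Foxa1 difference was 1.12 ± 0.48 (adjusted p = 0.0664). Among iHep groups only iHep_Foxa1 was called lower than Hep for Abca1 (-1.33 ± 0.42, adjusted p = 0.00886), with differences of -0.81 in iHep_Foxa2 (adjusted p = 0.13) and -0.57 in iHep_Foxa3 (adjusted p = 0.258) on the CPM scale. By limma on log2(FPKM + 1) the differences in iHep_Foxa2 and iHep_Foxa3 were 0.14 and 0.34 (adjusted p = 0.781 and 0.478), so their direction depends on the scale. The iHep groups set against each other gave no call for Abca1 by edgeR, with -0.76 for iHep_Foxa1 against iHep_Foxa3 (adjusted p = 0.133, 95% interval -1.38 to -0.14) and -0.52 for iHep_Foxa1 against iHep_Foxa2 (adjusted p = 0.322, interval -1.20 to 0.17). The Abca1 calls ended without either 48h_Foxa3 library (adjusted p = 0.113 and 0.132), for iHep_Foxa2 against MEF without either MEF library (adjusted p = 0.13 and 0.113), and for iHep_Foxa1 against Hep without Hep replicate 1 (-1.04, adjusted p = 0.129) and by limma on log2(FPKM + 1) (-0.54, adjusted p = 0.243).

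Scarb1 encodes the scavenger receptor that takes cholesteryl ester from HDL. In iHep_Foxa1 the lowest, median and highest levels were 33.0, 42.7 and 52.9 CPM, in iHep_Foxa3 they were 51.3, 53.6 and 83.0 CPM, and the 4 iHep_Foxa2 libraries held 49.8, 33.7, 27.1 and 39.0 CPM. At 48 h the libraries lay between 23.8 and 27.0 CPM, Hep held 220 and 276 CPM, and MEF held 54.0 and 65.5 CPM. The order of group levels was thus Hep, then MEF beside iHep_Foxa3, then the other iHep groups, then 48 h. Scarb1 rose relative to 48 h cells by 0.74 ± 0.21 with Foxa1 (adjusted p = 0.00824), 0.59 ± 0.22 with Foxa2 (adjusted p = 0.0385) and 1.20 ± 0.22 with Foxa3 (adjusted p = 0.000163). It was lower than in Hep by -2.55 ± 0.19, -2.73 ± 0.21 and -2.06 ± 0.19 in iHep_Foxa1, iHep_Foxa2 and iHep_Foxa3 (adjusted p = 1.16e-10, 3.04e-10 and 3.71e-09), at 17.1%, 15.1% and 24.0% of the Hep mean in CPM and 32.9%, 30.1% and 47.2% of it in FPKM.

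At 48 h Scarb1 was lower than in MEF by -1.23, -1.27 and -1.20 with Foxa1, Foxa2 and Foxa3 (SE 0.25 each, adjusted p = 0.0106, 0.00885 and 0.0117). Each of these 48 h calls for Scarb1 ended without MEF replicate 2 (adjusted p = 0.117, 0.101 and 0.13) and without either of its own 48 h libraries (adjusted p from 0.0977 to 0.17). With the Rn7sk set as a term the Scarb1 differences were -0.90, -0.93 and -0.86 (adjusted p = 0.0594, 0.0492 and 0.0667). In iHep cells the difference of Scarb1 from MEF was called in iHep_Foxa2 (-0.68 ± 0.21, adjusted p = 0.0187), and was -0.49 in iHep_Foxa1 (adjusted p = 0.0529) and near 0 in iHep_Foxa3, with an interval of -0.40 to 0.40. That iHep_Foxa2 call ended without iHep_Foxa2 replicate 3 (adjusted p = 0.0561) or MEF replicate 2 (adjusted p = 0.148). Against 48 h the Scarb1 call ended with Foxa1 without 48h_Foxa1 replicate 2 (adjusted p = 0.113), and with Foxa2 without either 48h_Foxa2 library (adjusted p = 0.19 and 0.207), iHep_Foxa2 replicate 1 (adjusted p = 0.126) or iHep_Foxa2 replicate 4 (adjusted p = 0.0614). The Foxa2 call for Scarb1 ended under 12 of 15 alternatives in all, among them DESeq2 (0.51, adjusted p = 0.0538), limma on log2(FPKM + 1) (0.49, adjusted p = 0.0716), no filter on low counts (0.46, adjusted p = 0.112), the most abundant transcript (0.29, adjusted p = 0.315) and the set term (0.25, adjusted p = 0.444).

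Lrp1 encodes a large endocytic receptor that clears remnants through apolipoprotein E and is abundant in fibroblasts too. The lowest, median and highest levels in iHep_Foxa1 were 187, 310.3 and 734 CPM, in iHep_Foxa3 they were 299.6, 485.5 and 624 CPM, and the 4 iHep_Foxa2 libraries held 463, 391, 752 and 515 CPM. Those at 48 h lay between 1131 and 1309 CPM, Hep held 879.7 and 848 CPM, and MEF held 1355 and 1157 CPM. In CPM every iHep library was below every 48 h, Hep and MEF library. Relative to 48 h cells Lrp1 fell by 1.51 ± 0.36 on the log2 scale with Foxa1 (adjusted p = 0.00174), 1.24 ± 0.39 with Foxa2 (adjusted p = 0.0155) and 1.42 ± 0.36 with Foxa3 (adjusted p = 0.00293). Relative to MEF it was lower by -1.64 ± 0.35, -1.24 ± 0.39 and -1.40 ± 0.36 (adjusted p = 0.000876, 0.0188 and 0.00289). Relative to Hep, Lrp1 was called lower in iHep_Foxa1 (-1.10 ± 0.36, adjusted p = 0.0118) and iHep_Foxa3 (-0.86 ± 0.36, adjusted p = 0.0453), with -0.70 in iHep_Foxa2 (adjusted p = 0.128).

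Calls for Lrp1 with Foxa2 ended without 48h_Foxa2 replicate 1 (against 48 h, adjusted p = 0.0947), and without iHep_Foxa2 replicate 2 or MEF replicate 1 (against MEF, adjusted p = 0.0514 and 0.0919). The Lrp1 calls against Hep ended in iHep_Foxa1 without either Hep library (adjusted p = 0.0672 and 0.0537), and in iHep_Foxa3 without Hep replicate 1 or 2 (adjusted p = 0.159 and 0.131) or iHep_Foxa3 replicate 1, 3, 5 or 6 (adjusted p from 0.0555 to 0.0813). On the FPKM scale the Lrp1 difference of iHep_Foxa3 from Hep was 0.075 as log2(FPKM + 1) by limma (adjusted p = 0.867), so its direction there depends on the scale, and that of iHep_Foxa1 was -0.32 (adjusted p = 0.445). With the Rn7sk set as a term, Lrp1 was -0.86 in iHep_Foxa3 against MEF (adjusted p = 0.126) and -1.85 in iHep_Foxa2 against 48h_Foxa2 (adjusted p = 0.00504).

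Vldlr encodes the very low-density lipoprotein receptor, which is abundant in muscle and fat and scarce in adult liver. It marked the Foxa3 lines. In iHep_Foxa1 its lowest, median and highest levels were 14.0, 26.6 and 55.4 CPM, and the 4 iHep_Foxa2 libraries held 54.0, 14.4, 16.8 and 22.0 CPM. In iHep_Foxa3 the lowest, median and highest were 88.6, 145 and 155 CPM. Levels at 48 h lay between 30.5 and 34.7 CPM for every factor, Hep held 24.9 and 24.3 CPM, and MEF held 54.3 and 79.3 CPM. All 6 iHep_Foxa3 libraries were above every library of the other iHep, 48 h, Hep and MEF groups. Vldlr rose in iHep_Foxa3 by 2.07 ± 0.46 over 48h_Foxa3 (adjusted p = 0.00112) and by 2.48 ± 0.48 over Hep (adjusted p = 0.000115). The Vldlr differences from 48 h were -0.18 with Foxa1 (adjusted p = 0.754) and -0.31 with Foxa2 (adjusted p = 0.582), and those from Hep were 0.22 (adjusted p = 0.665) and 0.12 (adjusted p = 0.819). By limma on log2(FPKM + 1) Vldlr was called higher than in Hep in iHep_Foxa1 too (0.73, adjusted p = 0.0465).

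Against MEF, Vldlr was lower in iHep_Foxa1 (-1.22 ± 0.38, adjusted p = 0.0144) and iHep_Foxa2 (-1.32 ± 0.42, adjusted p = 0.0193). In iHep_Foxa3 it was 1.04 ± 0.43 above MEF without a call by edgeR (adjusted p = 0.0529), and DESeq2 called it at 0.97 (adjusted p = 0.0482). Vldlr was also called lower in Hep than in MEF (-1.44 ± 0.51, adjusted p = 0.0198). Without MEF replicate 2, the Vldlr differences from MEF were -0.90 in iHep_Foxa1 (adjusted p = 0.215), -1.07 in iHep_Foxa2 (adjusted p = 0.187) and -1.06 in Hep (adjusted p = 0.162). The Hep call also ended without either Hep library (adjusted p = 0.083 and 0.0911). The iHep_Foxa2 call also ended without iHep_Foxa2 replicate 2 or 3 (adjusted p = 0.0554 and 0.0542), while without iHep_Foxa2 replicate 1 Vldlr stood at -1.91 (adjusted p = 0.00039).

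Cd36 encodes a scavenger receptor and fatty acid translocase. Its lowest, median and highest levels were, in iHep_Foxa1, 0, 0.28 and 14.3 CPM, in iHep_Foxa3 they were 0, 0.214 and 2.61 CPM, and the 4 iHep_Foxa2 libraries held 6.35, 0.58, 0.189 and 2.93 CPM. Libraries at 48 h lay between 0.418 and 0.72 CPM, Hep held 182 and 159 CPM, and MEF held 1.15 CPM in replicate 1 and 5.61 CPM in replicate 2, the one with more macrophage marker RNA. The iHep libraries spread widely and overlapped the 48 h and MEF libraries. Cd36 was lower than in Hep by -6.01 ± 1.43 in iHep_Foxa1 (adjusted p = 0.00101), -6.09 ± 1.69 in iHep_Foxa2 (adjusted p = 0.0037) and -7.81 ± 1.53 in iHep_Foxa3 (adjusted p = 0.000134). Leaving out replicate 1 of each group in turn moved these Cd36 values to -9.61, -7.12 and -8.79, each still called. With the set term the iHep_Foxa3 value was -4.97 (adjusted p = 0.0308). Against 48 h and MEF no iHep group was called. Cd36 was higher in Hep than in MEF by 5.65 ± 2.24 (adjusted p = 0.0358), and that call ended without any 1 of the 4 libraries (adjusted p from 0.0665 to 0.176). Macrophage markers summed to 0.0784 to 4.82 CPM in iHep and 268 to 322 CPM in Hep. Endothelial markers summed to 2.16 to 43.6 CPM in iHep and 147 to 151 CPM in Hep. The part of either list in the Cd36 differences was not tested.

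In Hep against MEF the remaining calls were in the liver direction. Lcat was higher in Hep by 10.03 ± 0.90 (adjusted p = 5.83e-09), Mttp by 5.93 ± 0.41 (adjusted p = 1.25e-10), Abca1 by 2.45 ± 0.58 (adjusted p = 0.000996) and Scarb1 by 2.05 ± 0.26 (adjusted p = 7.7e-07). Lipc, called too, averaged 421 CPM in Hep against 1 count in the MEF libraries. Lrp1 (-0.54 ± 0.47, adjusted p = 0.337) and Pltp (1.08 ± 0.74, adjusted p = 0.22) were not called.

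Compared per transcript length, as FPKM, the order of the genes differed between the groups. In iHep_Foxa3 Lpl led with a mean of 240 FPKM, ahead of Lrp1 at 33.6, Scarb1 at 26.1, Abca1 at 17.5 and Vldlr at 17.4 FPKM. Lpl led likewise in iHep_Foxa1 at 146 FPKM and in iHep_Foxa2 at 58.7 FPKM, followed there by Lrp1 at 28.1 and 37.6 FPKM. In 48 h cells and MEF the first gene was Lrp1, at 84.8, 91.9 and 93.2 FPKM in 48h_Foxa1, 48h_Foxa2 and 48h_Foxa3 and 79.8 FPKM in MEF. In Hep the leading genes were Lcat at 119 FPKM and Lipc at 116 FPKM, then Scarb1 at 55.2 and Mttp at 45.3 FPKM, while Vldlr at 1.59 and Lpl at 1.46 FPKM came last. Of the 4 leading genes of Hep, Scarb1 was also the third in iHep_Foxa1 at 18.2 FPKM, whereas Mttp, Lcat and Lipc were among its 4 last. These averaged 1.16 for Mttp, 1.0 for Lcat, 0.762 for Cd36 and 0.262 FPKM for Lipc. FPKM is not scaled by TMM, and the shares of the Hep mean were higher on it for all 10 genes. Scarb1 stood at 32.9%, 30.1% and 47.2% of the Hep FPKM in iHep_Foxa1, iHep_Foxa2 and iHep_Foxa3, Mttp at 2.55%, 4.11% and 2.56%, and Lcat at 0.842%, 0.554% and 1.84%. The map of mean FPKM shows these orders side by side.

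**Figure D3:**
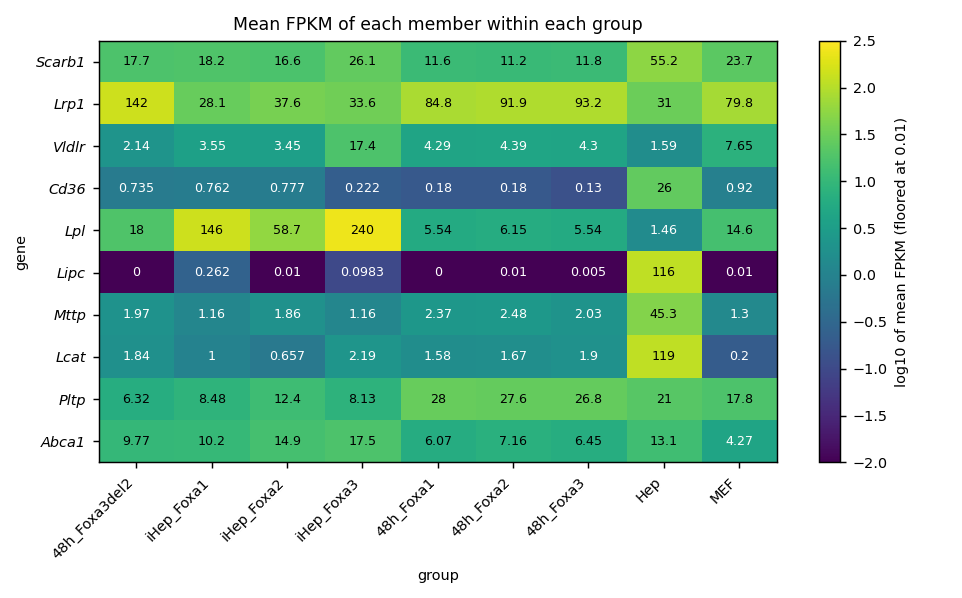
Mean FPKM of the 10 genes (rows) in the 9 groups (columns), with the mean printed in each cell and the colour on a log10 scale floored at 0.01 FPKM. Lpl has the highest mean in the 3 iHep columns, Lrp1 in the del2, 48 h and MEF columns, and Lcat in the Hep column.

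Between iHep groups, the number of members called was 1 of 10 for Foxa1 against Foxa2 (11.0% of all genes called), 2 for Foxa1 against Foxa3 (8.32%) and 5 for Foxa2 against Foxa3 (31.1%). Vldlr was lower in iHep_Foxa1 than in iHep_Foxa3 by -2.26 ± 0.30 (adjusted p = 0.000243) and lower in iHep_Foxa2 than in iHep_Foxa3 by -2.36 ± 0.35 (adjusted p = 0.000225). Neither Vldlr call ended without any 1 library, and without iHep_Foxa2 replicate 1 the difference of iHep_Foxa2 was -2.95. Scarb1 was lower in iHep_Foxa2 than in iHep_Foxa3 (-0.67 ± 0.16, adjusted p = 0.00547) and in iHep_Foxa1 than in iHep_Foxa3 (-0.49 ± 0.15, adjusted p = 0.0392). The Scarb1 call with Foxa1 ended without iHep_Foxa1 replicate 2, 3, 4 or 6 or iHep_Foxa3 replicate 1, 4 or 5 (adjusted p from 0.0513 to 0.0776). Lpl was lower in iHep_Foxa2 than in iHep_Foxa3 (-2.04 ± 0.51, adjusted p = 0.00619), and so was Lcat (-1.75 ± 0.44, adjusted p = 0.006). Mttp was higher in iHep_Foxa2 than in iHep_Foxa3 (0.69 ± 0.22, adjusted p = 0.0205), a call that ended without iHep_Foxa2 replicate 3 or 4 (adjusted p = 0.085 and 0.0616). Lipc was called between iHep_Foxa1, with 67 counts, and iHep_Foxa2, with 2 (adjusted p = 0.0222), and that call ended without iHep_Foxa1 replicate 6 or iHep_Foxa2 replicate 3 or 4 (adjusted p = 0.0524, 0.0549 and 0.0616), under the replicate block (adjusted p = 0.0639) and by limma on log2(FPKM + 1) (adjusted p = 0.0787).

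Whether the change of a gene from 48 h to iHep itself differed between factors was tested as a difference of differences. None of 30 such tests was called by edgeR, where 0.0% of all genes were called, 4 had an unadjusted p under 0.05, limma called 0 and DESeq2 called 1. That 1 was Vldlr, whose change with Foxa2 was below that with Foxa3 by -2.39 in DESeq2 (adjusted p = 0.025) and by -2.38 ± 0.61 in edgeR (adjusted p = 0.252). Among the 48 h groups, none of 30 tests was called by edgeR, DESeq2 or limma, none had an unadjusted p under 0.05, and 0.00606% to 0.0121% of all genes were called. Vldlr, which separated the iHep groups, averaged 32.4, 33.3 and 32.8 CPM at 48 h with Foxa1, Foxa2 and Foxa3.

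The iHep_Foxa2 libraries all belong to the Rn7sk-low set, and 5 of 6 iHep_Foxa3 libraries to the high set, so values within sets are given beside these differences. With the set as a term, Lpl in iHep_Foxa2 against iHep_Foxa3 was -1.68 (adjusted p = 0.155), Lcat was -0.43 (adjusted p = 0.579) and Mttp was 0.22 (adjusted p = 0.688). In the Rn7sk-low libraries alone, with a lone iHep_Foxa3 library taken to vary like the other groups, Lpl was -0.80 (adjusted p = 0.692) and Lcat was -0.47 (adjusted p = 0.672). Vldlr differed by as much within each set. In the high set alone iHep_Foxa1 was -1.96 below iHep_Foxa3 for Vldlr (adjusted p = 0.0034), and in the low set alone -2.59 (adjusted p = 0.0869), with iHep_Foxa2 at -2.32 (adjusted p = 0.0679). Within iHep_Foxa1 the 3 Rn7sk-high libraries against the 3 others averaged 567 and 580 CPM for Lpl (adjusted p = 0.924), 34.8 and 22.4 CPM for Vldlr (adjusted p = 0.242), 269 and 537 CPM for Lrp1 (adjusted p = 0.188), 1.96 and 0.67 CPM for Lcat (adjusted p = 0.13) and 67.9 and 133 CPM for Abca1 (adjusted p = 0.314). Lipc, Mttp and Lcat did not overlap between the sets of iHep_Foxa1. The share of all genes without overlap there was not computed. Lcat lay at 1.34 to 3.17 CPM in the Rn7sk-high libraries and at 0.235 to 1.05 CPM in the others. The 3 Rn7sk-high libraries held 0.626 to 1.38 CPM of Lipc and the 3 others 0 to 0.186 CPM, a log2 difference of 3.26 (adjusted p = 0.0501), and they held 3.06 to 3.52 and 4.78 to 6.72 CPM of Mttp (-0.79, adjusted p = 0.0962). None of these 7 set differences was called, where 26.0% of all genes were called between the sets in that group. With the set as a term, Lipc in iHep_Foxa1 against iHep_Foxa2 was 2.54 (adjusted p = 0.265), and in the Rn7sk-low libraries alone it was 2.29 (adjusted p = 0.464). In the high set alone the rise of Lpl over 48 h was 4.78 with Foxa1 and 5.60 with Foxa3. The 5 Rn7sk-high libraries of iHep_Foxa3 averaged 1030 CPM of Lpl and 137 CPM of Vldlr, and the lone Rn7sk-low library held 395 and 136 CPM.

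**Figure D4:**
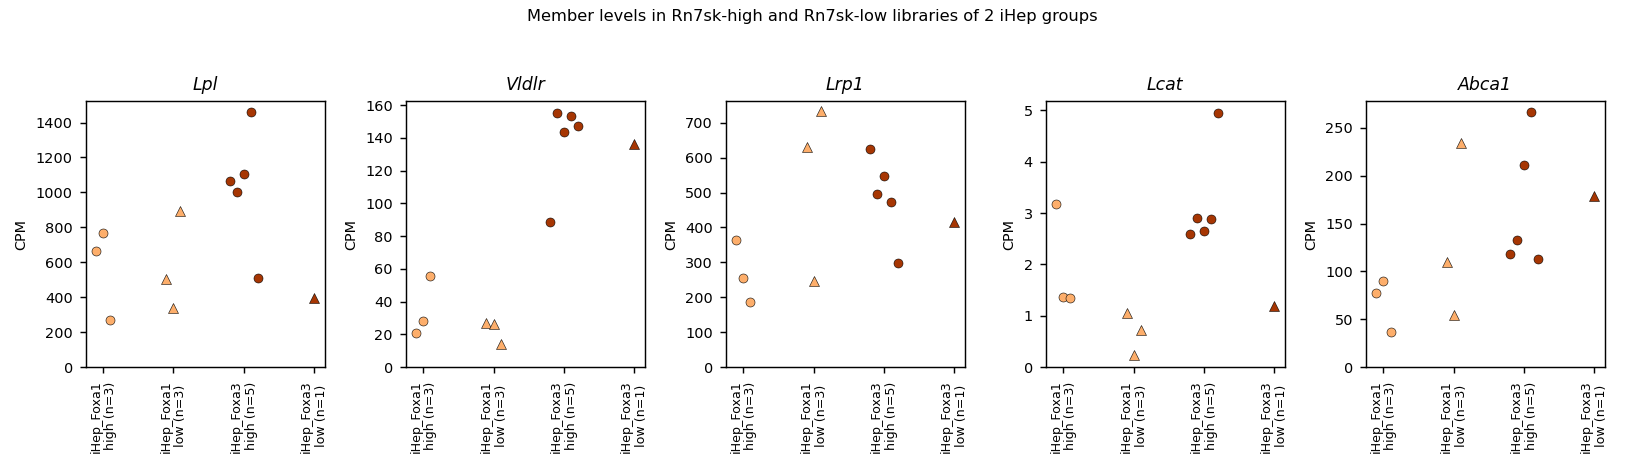
CPM of Lpl, Vldlr, Lrp1, Lcat and Abca1 in iHep_Foxa1 and iHep_Foxa3, split by library set, 1 point per library, circles for Rn7sk-high and triangles for Rn7sk-low libraries. Vldlr stands at 14.0 to 55.4 CPM in iHep_Foxa1 and 88.6 to 155 CPM in iHep_Foxa3 over both sets, while Lcat lies at 2.58 to 4.94 CPM in the high libraries of iHep_Foxa3 and at 1.19 CPM in the lone low one.

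None of the 10 genes was called by edgeR, DESeq2 or limma between cells given the del2 mutant of Foxa3 and 48h_Foxa3. By edgeR 3 had an unadjusted p under 0.05, and 2.98% of all genes were called. The groups did not overlap in 7 of the 10 genes, where 78.4% of all genes did not overlap. Levels of the introduced genes differed between these groups too. Hnf4a averaged 732 CPM in 48h_Foxa3del2 and 81.3 CPM in 48h_Foxa3, and Foxa3 averaged 559 and 72.4 CPM in the same groups. Fibroblast markers summed to 7180 to 8640 CPM in 48h_Foxa3del2 and 24300 to 25400 CPM in 48h_Foxa3. The mutation, the level of the factors and the makeup of the cells cannot be told apart here. Pltp held 8.71 and 12.6 CPM in 48h_Foxa3del2 and 44.0 and 44.8 CPM in 48h_Foxa3 (-2.06 ± 0.75, adjusted p = 0.149). Lpl held 68.0 and 68.3 CPM in 48h_Foxa3del2 and 20.5 and 20.6 CPM in 48h_Foxa3 (1.73 ± 0.75, adjusted p = 0.241). Vldlr held 16.5 and 16.7 CPM with the mutant and 32.1 and 33.4 CPM with full-length Foxa3 (-0.98 ± 0.50, adjusted p = 0.331). Lrp1 held 1882 and 2091 CPM with the mutant against 1247 and 1302 CPM with full-length Foxa3 (0.64, adjusted p = 0.541), and Abca1 held 92.3 and 95.5 CPM against 62.4 and 58.9 CPM (0.63, adjusted p = 0.629). Scarb1 held 39.8 and 40.0 CPM against 25.7 and 26.3 CPM (0.62, adjusted p = 0.201), Cd36 3.08 and 1.74 CPM against 0.418 CPM in both (2.52, adjusted p = 0.596), Mttp 7.09 and 8.11 CPM against 7.26 and 8.15 CPM, and Lcat 2.26 and 2.48 CPM against 2.51 and 2.25 CPM. The 48h_Foxa3del2 libraries are Rn7sk-low and the 48h_Foxa3 libraries Rn7sk-high. With the set as a term, Pltp was called at -2.63 (adjusted p = 0.0316) and Lcat at 1.48 (adjusted p = 0.0443). Neither group holds both sets, so the term carries over the set difference seen within iHep_Foxa1 and iHep_Foxa3. The Lcat levels themselves overlapped, so the Lcat call rests on that term. When only these 4 libraries were fitted, with their own narrow spread, 7 of 10 were called. Macrophage markers summed to 56.9 to 62.8 CPM with the mutant, 10.4 CPM in both 48h_Foxa3 libraries and 0.529 to 4.82 CPM in iHep_Foxa3, and their part in these levels was not tested.

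Against iHep_Foxa3, 6 members were called in 48h_Foxa3del2, where 32.7% of all genes were called. Lpl was lower with the mutant (-3.76 ± 0.77, adjusted p = 0.000689), as was Vldlr (-3.05 ± 0.49, adjusted p = 6.58e-05), and Lrp1 was higher (2.06 ± 0.35, adjusted p = 0.000107). No library left out ended these 3 calls, and in the Rn7sk-low libraries alone the Lpl difference was -2.50 (adjusted p = 0.0977). Scarb1 was lower (-0.58 ± 0.21, adjusted p = 0.0397) and Mttp higher (0.74 ± 0.26, adjusted p = 0.0339). The Scarb1 and Mttp calls ended without either mutant library (adjusted p = 0.211 and 0.189 for Scarb1, 0.0748 and 0.231 for Mttp), without iHep_Foxa3 replicate 1 (adjusted p = 0.0676 and 0.0512), Scarb1 without iHep_Foxa3 replicate 5 (adjusted p = 0.0574) and Mttp without iHep_Foxa3 replicate 6 (adjusted p = 0.0604). The mutant libraries are all Rn7sk-low. With the set as a term Mttp was 0.28 (adjusted p = 0.479) and Lipc lost its call (adjusted p = 0.173), and neither was called under the replicate block (adjusted p = 0.0711 for Mttp and 0.113 for Lipc) or in the low set alone (adjusted p = 0.0775 and 0.116). Scarb1 was -0.85 with the set term (adjusted p = 0.00374), and lost its call with DESeq2 size factors (adjusted p = 0.0511) and by limma on log2(FPKM + 1) (adjusted p = 0.0579). Lipc, at 0 counts with the mutant, was called lower by at least 6.39-fold (adjusted p = 0.0329), a call that ended without iHep_Foxa3 replicate 3 or 6 (adjusted p = 0.0559 and 0.0566) or either mutant library (adjusted p = 0.186 and 0.156).

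Other genes of these pathways were read from 5 lists, of 16 further uptake genes, 12 lipases and their regulators, 12 assembly genes, 9 HDL and efflux genes and 9 lipid-responsive transcription factors. Shares of all genes are given beside the counts, and no list was tested as a set. In each iHep group 11 of the 12 assembly genes were lower than in Hep, where 24.8%, 25.4% and 26.7% of all genes were lower in iHep_Foxa1, iHep_Foxa2 and iHep_Foxa3, and 1 was higher, where 35.3%, 35.2% and 35.3% were higher. The medians of the list were -2.02, -2.22 and -2.14, against 0.42, 0.42 and 0.39 for all genes. Apob, the structural protein that Mttp loads, averaged 20.9 CPM in iHep_Foxa2 and 5800 CPM in Hep (-8.12 ± 1.33, adjusted p = 1.73e-05). Dgat2, which makes triglyceride, averaged 19.5 CPM in iHep_Foxa2 and 1560 CPM in Hep (-6.32 ± 0.47, adjusted p = 1.59e-10), and Cideb, which helps to lipidate the particles, 4.18 CPM in iHep_Foxa3 and 272 CPM in Hep (-6.02 ± 0.40, adjusted p = 2.28e-11). Relative to 48 h cells, 5, 1 and 3 of the 12 assembly genes were higher in iHep_Foxa1, iHep_Foxa2 and iHep_Foxa3, where 21.2%, 20.4% and 19.6% of all genes were higher. Of the same list 0, 1 and 0 were lower, where 20.7%, 19.7% and 21.0% of all genes were lower. Apob averaged 167 ± 194 CPM in iHep_Foxa1 (SD, n = 6) and 10.4 CPM in 48h_Foxa1 (4.00 ± 1.42, adjusted p = 0.0273), while Mttp fell in the same comparison. Apob split by library set, with 61.3, 38.8 and 10.7 CPM in the Rn7sk-high replicates of iHep_Foxa1 and 219, 532 and 142 CPM in its other replicates. The 48h_Foxa1 libraries, both Rn7sk-high, held 10.6 and 10.3 CPM of Apob. Enterocyte markers, 7 genes, summed to 113 to 1310, 29.3 to 147 and 221 to 376 CPM in iHep_Foxa1, iHep_Foxa2 and iHep_Foxa3. They summed to 85.8 to 93.7 CPM in Hep, mostly Fabp2, and 3.0 to 5.27 CPM in MEF. Most of each iHep sum was Vil1 and Cdx2, while Fabp2 and Sis held at most 0.502 and 0.0661 CPM in iHep. The part of these markers in the Apob levels was not tested.

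Of the 12 genes of the lipase list, 8, 10 and 7 were lower than in Hep in iHep_Foxa1, iHep_Foxa2 and iHep_Foxa3, beside 24.8%, 25.4% and 26.7% of all genes, and 0, 0 and 1 were higher, beside 35.3%, 35.2% and 35.3%. The medians of that list were -4.53, -6.62 and -5.18. Apoc3, an apolipoprotein that inhibits lipolysis, averaged 0.296 CPM in iHep_Foxa1 and 3740 CPM in Hep (-13.64 ± 0.98, adjusted p = 5.21e-10). Lipg, endothelial lipase, averaged 0.0857 CPM in iHep_Foxa3, 33.5 CPM in 48h_Foxa3 and 24.1 CPM in MEF, and fell by 8.55 ± 0.80 on the log2 scale against 48h_Foxa3 (adjusted p = 4.34e-08). Of the HDL and efflux genes, 6 of 9 were lower than in Hep in each iHep group and 1, 1 and 2 higher, beside the same shares of all genes. Apoa1, the protein that accepts lipid from ABCA1, averaged 16100 CPM in iHep_Foxa3, 2.45 CPM in 48h_Foxa3 and 0.429 CPM in MEF (15.18 ± 1.31 over MEF, adjusted p = 1.29e-08). Apoa2, the other major HDL protein, averaged 0.315 CPM in iHep_Foxa2 and 8820 CPM in Hep (-14.74 ± 0.96, adjusted p = 2.35e-11). Abcg1, a sterol exporter to HDL, averaged 23.5 CPM in iHep_Foxa3 and 0.663 CPM in 48h_Foxa3 (5.14 ± 0.92, adjusted p = 0.000119).

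Of the 16 uptake genes, 4, 5 and 6 were higher and 5, 6 and 5 lower than in Hep in iHep_Foxa1, iHep_Foxa2 and iHep_Foxa3, near the shares of all genes (35.3%, 35.2% and 35.3% higher, 24.8%, 25.4% and 26.7% lower). Their medians were -0.14, 0.19 and 0.37. Of the transcription factors, Nr1h3, the sterol sensor LXR alpha with Abca1, Abcg1 and Lpl among its known targets, averaged 18.6 CPM in iHep_Foxa3, 1.66 CPM in 48h_Foxa3 and 1.86 CPM in MEF (3.48 ± 0.54 over 48h_Foxa3, adjusted p = 2.6e-05). In Hep, Nr1h3 averaged 216 CPM, with Abca1 at 252.7 CPM, Abcg1 at 5.0 CPM and Lpl at 11.0 CPM. The part of Nr1h3 in the levels of these genes was not tested. Ppara, the fatty acid sensor of hepatocytes, averaged 1.74 CPM in iHep_Foxa2 and 227 CPM in Hep (-7.03 ± 0.50, adjusted p = 9.98e-11). With the mutant, Apoa1 averaged 484 CPM in 48h_Foxa3del2 and 2.45 CPM in 48h_Foxa3 (7.62 ± 1.0, adjusted p = 0.000191), and Abca7, a relative of Abca1, averaged 73.6 and 18.3 CPM in the same groups (2.01 ± 0.29, adjusted p = 0.000514).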

How the data were processed

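RNA was sequenced from 28 mouse libraries made with a stranded mRNA kit, per the labels' protocols. BWA 0.7.12 and the build mm9 are named in the submitters' processing notes, while the sources used here do not name the quantifier or its strand setting. Per the file headers, the deposited tables list 30710 transcripts with the expected count, the FPKM and the fraction of reads that the authors computed. The deposited fraction was not used further. Recomputing FPKM from the expected counts gave the authors' FPKM within 0.459% for transcripts with 1000 counts or more. Transcripts were named through RefSeq (30190) or GENCODE (181), and 339 were left unnamed, taking 0.609% to 3.208% of reads.

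Expected counts were summed per gene and rounded. At most 7 per library were not whole within 1e-09. In R 4.3.3, edgeR 4.0.16 was run with filterByExpr (16499 genes left), TMM scaling and a robust quasi-likelihood fit with 1 coefficient per group over all 28 libraries (19 residual degrees of freedom). Each of 21 comparisons was tested 2-sided with Benjamini-Hochberg adjustment over all genes, and a gene was called at an adjusted p under 0.05. An SE is the log2 fold change divided by the root of the F statistic. Intervals of a fold change are normal 95% intervals. Alternatives were DESeq2 1.42.0 size factors and Wald test, limma 3.58.1 on log2(FPKM + 1) or log2(FPKM + 0.1) with at least 1 FPKM in 2 libraries, no filter, the most abundant transcript, a replicate block, a term for the library set (Rn7sk at 10 CPM or more), each set alone, the compared groups alone, and each library left out. The tests were tried on simulated data first. A fold against a group at 0 used a floor of 3 counts over that group.

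The members and lists were chosen with earlier results of these data known. Named were the 10 members in every comparison, the introduced factors, the markers, Rn7sk, up to 3 called genes of each pathway list per family of comparisons with the largest fold change and a higher mean of at least 1 CPM, and the 3 genes most correlated with each member. Genes named outside this rule are marked in the text or serve as overlapping genes. Some genes of the pathway lists are counted but not reported here by name.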

Additional observations from a re-analysis of the deposited data

Results flagged for a closer look

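Each member was checked in each iHep group for a library set apart from the others, in 30 groups of libraries in all. Dixon's test was used on CPM. Chance alone flags about 1 in 20 such groups if values are normally distributed, which was not tested for these CPM. There were 4 flags. Vldlr stood at 55.36 CPM in iHep_Foxa1 replicate 6, with 28.07 CPM the next highest, and at 88.63 CPM in iHep_Foxa3 replicate 2, with 135.9 CPM the next lowest. Cd36 stood at 14.3 CPM in iHep_Foxa1 replicate 1, where the next highest library held 0.3605 CPM. Abca1 stood at 234.8 CPM in iHep_Foxa1 replicate 3, with 109.4 CPM the next highest. The cause of these values was not tested.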

How the results depend on the processing

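Of the 83 member calls, 79 were kept with DESeq2 size factors, 78 by DESeq2's test (with 4 not given an adjusted p), 71 and 74 by limma with a pseudocount of 1 and 0.1, 79 without a filter, 81 with the most abundant transcript, 67 with the library set as a term, 38 of 61 in the Rn7sk-low set alone, 15 of 15 in the high set alone, and 64 of 82 with the compared groups alone. DESeq2 size factors moved the median of all genes by 0.16 in Hep against MEF and by -0.21, -0.25 and -0.23 in iHep_Foxa1, iHep_Foxa2 and iHep_Foxa3 against Hep. Under the replicate block 75 of the 83 calls were kept and 8 ended. Deviations of same-numbered libraries from their group means correlated at -0.21 to 0.34 over 80 pairs, with a median of 0.0021 and 7 over 0.1. The highest were iHep_Foxa1 with iHep_Foxa3 at replicate 6 (0.34) and replicate 1 (0.30). Where both groups hold 2 libraries, the replicates give the same value, and differently numbered pairs were not computed. These values therefore cannot settle whether some samples were paired, and the numbers were not taken to pair them.

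Counts of calls that moved by over 1.5 times were as follows. With the library set as a term, 48 h against MEF had 1 call and 48h_Foxa3del2 against 48h_Foxa3 had 2. With the compared groups alone, 48 h against MEF had 10, iHep against MEF 9, among iHep 5 and 48h_Foxa3del2 against 48h_Foxa3 7. In the Rn7sk-low set alone, among iHep had 0 and 48h_Foxa3del2 against iHep_Foxa3 had 3, and 48h_Foxa3del2 against iHep_Foxa3 had 3 by limma with a pseudocount of 0.1. The differences between factors in the change from 48 h to iHep had 1 call by DESeq2. Leaving out 1 library at a time gave 5 to 7 calls in Hep against MEF, 0 to 4 in 48 h against MEF, 8 to 16 in iHep against MEF, 13 to 17 in iHep against 48 h, 21 to 25 in iHep against Hep, 6 to 10 among iHep, 0 in 48h_Foxa3del2 against 48h_Foxa3, 3 to 6 in 48h_Foxa3del2 against iHep_Foxa3, and 0 to 1 for the differences between factors.

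Directions turned in 5 cases in which the value or its alternative was called. Values called in neither changed sign in 196 of 2644 alternative values. Lpl in Hep against MEF was 0.124 without MEF replicate 2 and -3.287 without MEF replicate 1. Lrp1 in iHep_Foxa3 against Hep was 0.075 and 0.076 by limma with pseudocounts of 1 and 0.1. Cd36 in iHep_Foxa1 against iHep_Foxa2 was -3.525 (adjusted p = 0.034) without iHep_Foxa1 replicate 1 and 1.107 without iHep_Foxa2 replicate 1. Lcat in 48h_Foxa3del2 against 48h_Foxa3 was 1.478 with the set term. The causes were not tested. With 2 libraries in most groups, precision rests on a spread pooled over all groups, and genes near 0 counts, Lipc and Cd36 above all, are limited by depth.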

Other observations

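Over the 9 group means of log2(CPM + 1), the genes whose pattern was most like that of Lpl were Primpol (Pearson r = 0.9899), Rgs20 (r = 0.9877) and Rgs4 (r = 0.9821). Of these Rgs4, a regulator of G-protein signalling, had the widest range. Rgs4 averaged 46.5, 32.9 and 69.6 CPM in iHep_Foxa1, iHep_Foxa2 and iHep_Foxa3, 5.37 to 6.66 CPM at 48 h, 1.85 CPM in Hep and 10.3 CPM in MEF. Primpol stayed between 8.46 and 15.5 CPM on average. For Lcat the nearest gene was Pdzk1 (r = 0.9969), which encodes a scaffold protein that holds SCARB1 at the hepatocyte membrane. Pdzk1 averaged 1.93, 1.53 and 3.15 CPM in the 3 iHep groups, 2.55 to 2.83 CPM at 48 h, 282 CPM in Hep and 1.17 CPM in MEF. The complement gene C1ra was nearest to Pltp (r = 0.9789), with 7.2 CPM in 48h_Foxa3del2 and 83.9 to 89.6 CPM in the 48 h groups with full-length factors. No gene came as close to Vldlr, where the best match was Fut7 (r = 0.8991), at under 1 CPM in every group mean. These correlations are over 9 means, share libraries, and for genes high in Hep rest on that group.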
